A study of Mus musculus with 5 samples.

Results

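Rpl3l, Rpl3 and Rpl3-ps1 are the muscle form, the ubiquitous form and a processed pseudogene of ribosomal protein L3. They are 3 of the 35275 genes measured by RNA sequencing in the gastrocnemius, a mainly fast-twitch calf muscle. The members were taken by symbol and had been chosen by their FPKM levels in these same libraries, so those levels are given as a description without a test. All samples came from female NSG mice at week 12. NSG (NOD scid gamma) mice lack mature T, B and natural killer cells, and the labels give the genotype as Wild Type. Each mouse had received 10 tail-vein injections, 2 a week for 5 weeks, of about 10 µg of extracellular vesicles from cells named MCF-10A/miR122, and muscle was collected 2 days after the last. The MCF-10A line derives from human breast epithelium and forms no tumours, and miR-122 is a microRNA best known from liver. The 5 samples form 1 group with no untreated counterpart, so no effect of the vesicles can be read from them. That each number is a separate animal is not stated, and spreads are between samples.

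Ribosomal protein L3 is a core protein of the large ribosomal subunit, with an extension that reaches towards the site of peptide bond formation. Most cells make it from Rpl3. Skeletal muscle and heart also use Rpl3l, whose product can take the same place in the ribosome, and in mouse muscle the balance between these genes has been described to shift towards Rpl3 during growth after overload. A processed pseudogene is a copy of a spliced messenger RNA inserted elsewhere in the genome, which can be nearly identical to its parent in sequence.

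The sequences below show how far reads of the members could be told apart. Over 1209 aligned bases, Rpl3-ps1 differed from the coding sequence of Rpl3 at 2 positions, an identity of 99.8%. The differences were C57A and T786C, in which Rpl3 has the base before the position, Rpl3-ps1 the base after it, and positions are counted from 1 at the A of the Rpl3 start codon. Rpl3l matched Rpl3 at 902 of 1205 aligned bases (74.9%). The first 120 coding bases of Rpl3 are set beside the matching stretches, read 5′ to 3′ from GENCODE M21 transcripts on GRCm38, with capitals where a sequence differs from Rpl3.
Rpl3: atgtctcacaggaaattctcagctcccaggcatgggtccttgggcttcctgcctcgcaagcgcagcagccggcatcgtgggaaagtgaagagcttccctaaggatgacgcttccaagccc
Rpl3-ps1: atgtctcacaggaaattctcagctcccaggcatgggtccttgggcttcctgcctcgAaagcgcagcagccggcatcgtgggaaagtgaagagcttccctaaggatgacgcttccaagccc
Rpl3l: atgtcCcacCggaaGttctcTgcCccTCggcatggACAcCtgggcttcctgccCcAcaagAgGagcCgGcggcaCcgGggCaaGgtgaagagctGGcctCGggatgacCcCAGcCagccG

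The same 3 sequences around the other difference run from base 726 to base 845 of the Rpl3 coding sequence.
Rpl3: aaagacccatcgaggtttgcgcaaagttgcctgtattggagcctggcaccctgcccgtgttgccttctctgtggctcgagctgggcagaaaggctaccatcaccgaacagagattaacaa
Rpl3-ps1: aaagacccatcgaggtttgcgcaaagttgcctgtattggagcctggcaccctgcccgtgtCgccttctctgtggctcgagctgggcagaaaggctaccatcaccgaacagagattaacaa
Rpl3l: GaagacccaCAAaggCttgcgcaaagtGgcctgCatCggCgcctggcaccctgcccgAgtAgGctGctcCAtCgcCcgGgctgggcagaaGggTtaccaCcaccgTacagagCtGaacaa
Rpl3-ps1 has 1 capital in each stretch, whereas Rpl3l has 31 in the first stretch and 24 in the other. The longest run of identical bases was 728 between Rpl3 and Rpl3-ps1 and 22 between Rpl3 and Rpl3l.

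Rpl3l could be counted without interference from the other members, and Rpl3 and Rpl3-ps1 could not. Every one of the 1276 windows of 100 bases in the main Rpl3l transcript was found in no other annotated gene. For the spliced Rpl3 transcript, 258 of 1252 such windows (20.6%) were unique to the gene, and 953 (76.1%) were also present in Rpl3-ps1. For Rpl3-ps1 itself, 58 of 1111 windows (5.22%) were unique. Of the 953 shared windows, 694 (72.8%) span a junction between exons of Rpl3 and lie unbroken in the pseudogene. That share is near the one of all 1252 Rpl3 windows, of which 872 (69.6%) span a junction. With windows of 50 bases the unique shares were 14.4% for Rpl3 and 4.31% for Rpl3-ps1, and with windows of 150 bases they were 29.0% and 5.47%. The labels do not say how reads matching several genes were handled, so the levels of Rpl3 and Rpl3-ps1 below are uncertain in a way that those of Rpl3l are not. From its first ATG the pseudogene holds 403 codons without a stop, as many as Rpl3.

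Rpl3l (ENSMUSG00000002500, chr17:24727820-24736143, plus strand, 10 exons, 407 codons) was one of the most abundant transcripts of the muscle. Its level was 548 FPKM in library 1, 591 in library 2, 505 in library 3, 583 in library 4 and 532 in library 5, where FPKM is the number of reads per 1000 bases of gene and per 1000000 reads of library. The values lay close together, with library 2 highest, as for 23.2% of the 10710 genes with a mean of at least 1 FPKM, and library 3 lowest, as for 17.1% of them. The mean was 552 ± 35.8 FPKM (SD, n = 5), which placed the gene 78th of all 35275. Its coefficient of variation was 6.48%, lower than in all but 5.57% of those genes, whose median was 16.3%. Counting error alone would give 0.796%, since the values rest on 11569 to 19085 reads. When the libraries were instead scaled by the median of ratios over genes, library 4 was highest at 651, library 3 was again lowest at 473, and the coefficient of variation was 11.7%.

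Rpl3 (ENSMUSG00000060036, chr15:80077791-80091868, minus strand, 10 exons in the spliced transcript, 403 codons) was far lower and had a single high library. Its level was 18.7 FPKM in library 1, 23.1 in library 2, 73.9 in library 3, 19.3 in library 4 and 17.3 in library 5. The value of library 3 was 3.77 times the mean of the other libraries, which lay within 17.3 to 23.1 FPKM. Library 3 exceeded the next library by 3 times or more in 1.03% of the 10710 genes and was highest in 37.4%, values that took part in the choice of the members. The mean over all 5 was 30.5 ± 24.4 FPKM (SD, n = 5), and without library 3 it was 19.6 ± 2.46 FPKM (SD, n = 4). The values rest on 805, 802, 2313, 864 and 824 reads in the order of the library numbers, and the exact Poisson interval of library 3 at 95% was 2220 to 2409 reads, against 747 to 924 over the other libraries. Intervals of this kind cover counting error only. The deposited values of Rpl3 use a length of 1877 bases, that of an annotated transcript with a retained intron. On the 1351 bases of the spliced coding transcript the mean would be 42.3 FPKM.

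Rpl3-ps1 (ENSMUSG00000084349, chrX:13202571-13203780, plus strand, 1 exon) was measured at 2.99 FPKM in library 1, 5.04 in library 2, 46.9 in library 3, 5.38 in library 4 and 4.20 in library 5. Library 3 again stood alone, at 10.7 times the mean of the other libraries. Those values correspond to 83, 113, 946, 155 and 129 reads, and the interval of library 3 was 887 to 1008 reads, against 66.1 to 181 over the others. The mean was 12.9 ± 19.0 FPKM (SD, n = 5), and 4.40 ± 1.06 FPKM without library 3 (n = 4). Of the reads given to either gene, the share assigned to Rpl3-ps1 was 29.0% in library 3 (95% Wilson interval 27.5% to 30.6%) and 9.35% to 15.2% in the other libraries. On the log2(FPKM + 1) scale the ratio of Rpl3-ps1 over Rpl3 was -0.65 in library 3 and -2.30 to -1.67 in the others. Dixon's gap measure for this ratio was 0.619, under the 95% limit of 0.71. With 5 values, missing that limit does not show library 3 to be like the rest. Other Rpl3 pseudogenes in the table were nearly empty. Rpl3-ps2 had 4 reads in library 3 and 0 in the others, while Gm5879 and Gm12816 had at most 3 reads in any library.

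**Figure D1:**
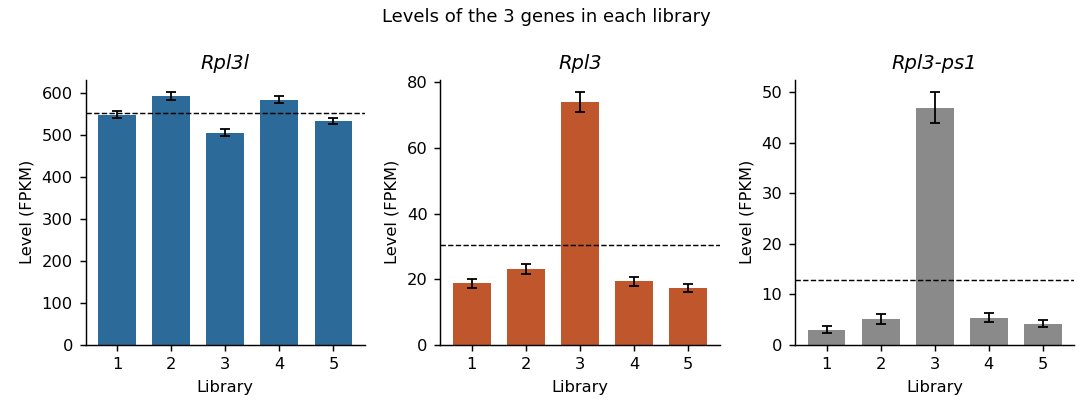
Level of Rpl3l, Rpl3 and Rpl3-ps1 in FPKM (vertical axes, different ranges) in each of the 5 libraries (horizontal axes); bars are single libraries, error bars exact 95% Poisson intervals of the reads, and dashed lines the mean over libraries. Rpl3l lies between 505 and 591 FPKM, whereas library 3 holds the high value of Rpl3 (73.9 FPKM) and of Rpl3-ps1 (46.9 FPKM).

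Rpl3l exceeded Rpl3 in every library, and the gap was narrowest in library 3. The FPKM of Rpl3l was 29.3, 25.6, 6.83, 30.2 and 30.8 times that of Rpl3 in libraries 1 to 5. On the log2(FPKM + 1) scale the ratio of Rpl3l over Rpl3 was 4.38 ± 0.91 (SD, n = 5), with 2.75 in library 3 and 4.62 to 4.87 in the others. As a share of their summed FPKM, Rpl3l took 96.7% in library 1, 96.2% in library 2, 87.2% in library 3, 96.8% in library 4 and 96.9% in library 5, a mean of 94.8% ± 4.22 (SD, n = 5). The summed FPKM of Rpl3l and Rpl3 was 566, 614, 578, 602 and 549, so that library 3 lay inside the range of the others for the sum.

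The share depends on how the sequence that Rpl3 shares with its pseudogenes is treated. When the reads of each gene were divided by its number of unique windows of 100 bases in place of its length, Rpl3l took 81.3%, 79.2%, 50.3%, 81.7% and 82.0% in libraries 1 to 5. Under windows of 50 bases it took 41.5% in library 3 and 72.7% to 76.2% in the others, and under windows of 150 bases 58.7% in library 3 and 84.2% to 86.5% in the others. These values use the windows of the spliced Rpl3 transcript. With those of the intron-retaining transcript, whose length the deposited values use, Rpl3l took 74.2% of the total in library 3 under windows of 50 bases, 77.5% under 100 and 80.7% under 150, and 91.5% to 94.9% in the other libraries. Both scalings were chosen after the values were seen and would apply if only reads matching a single gene had been counted, which is not stated. Rpl3l was the higher form in libraries 1, 2, 4 and 5 by each of these scalings. In library 3 Rpl3 was higher under windows of 50 bases of the spliced transcript, and Rpl3l under the others, by little under windows of 100 bases. Library 3 had the lowest Rpl3l share under all of them. Rpl3-ps1, left out of these shares, has only 50 to 58 unique windows. In library 3 it had 18.9, 16.3 and 16.3 reads per unique window of 50, 100 and 150 bases. Rpl3l had 8.72, 9.07 and 9.44 there, and Rpl3 12.3, 8.97 and 6.63 with the spliced transcript. In the other libraries Rpl3-ps1 had 1.43 to 3.10, below Rpl3l. Whether this scaling gives reads to the right gene was not tested.

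**Figure D2:**
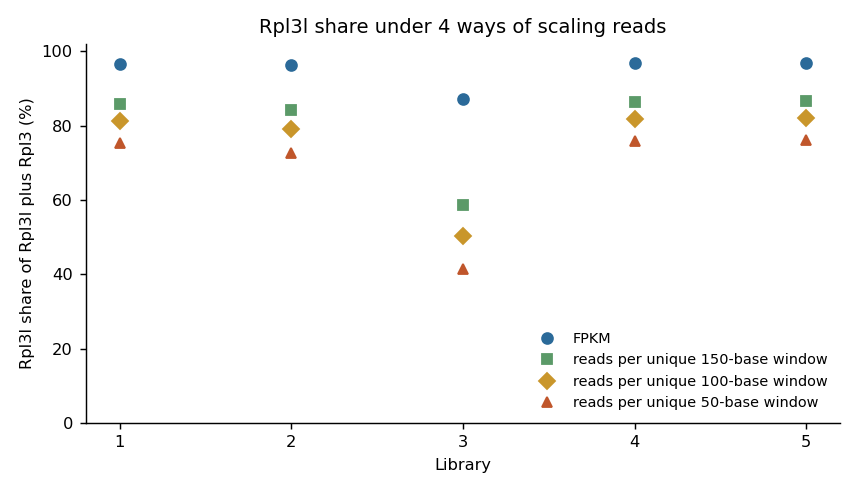
Rpl3l as a percentage of Rpl3l plus Rpl3 (vertical axis, from 0) in each library (horizontal axis), from FPKM (circles) and, with the spliced Rpl3 transcript, from reads per unique window of 150 (squares), 100 (diamonds) and 50 bases (triangles). Library 3 has the lowest share under each scaling drawn, from 87.2% by FPKM to 41.5% by 50-base windows.

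Cytosolic ribosomal proteins build the same particle as L3, and their genes are usually held at related levels. Of 80 such genes, Rpl3l included, Rpl3l had the 4th highest mean FPKM and Rpl3 the 74th, and the median of the 77 others at a mean of 1 FPKM or more was 218 FPKM. Of the 79 genes at that level, 66 had their highest value in library 3, against 37.4% of all 10710 genes. Of the 77 genes other than Rpl3l and Rpl3, 65 were highest in library 3, 11 in library 4, 1 in library 1 and 0 in libraries 2 and 5. The shares of all genes were 10.5% for library 4, 21.2% for library 1, 23.2% for library 2 and 7.68% for library 5. The median of those 77 deviated from the mean of each gene by 0.31 in library 3, on the log2(FPKM + 1) scale, and by -0.18 to 0.14 in the other libraries, against 0.06 for all genes in library 3. Rpl3 deviated by 1.496 in library 3, a value that only Rpl23a exceeded (1.67), and by -0.39 in library 4, where the median of the others was 0.14. Rpl3l deviated by -0.13 in library 3, below all but 2 of the 78 other genes. Under median-of-ratios scaling 24 of the 79 genes were highest in library 3, against 27% of all genes, and 54 of the 77 others were highest in library 4, against 27.5% of all genes. The median of the 77 was then 0.22 there and 0.30 in library 4. Rpl3 had its highest value in library 3 and Rpl3l its lowest under that scaling and under TPM.

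**Figure D3:**
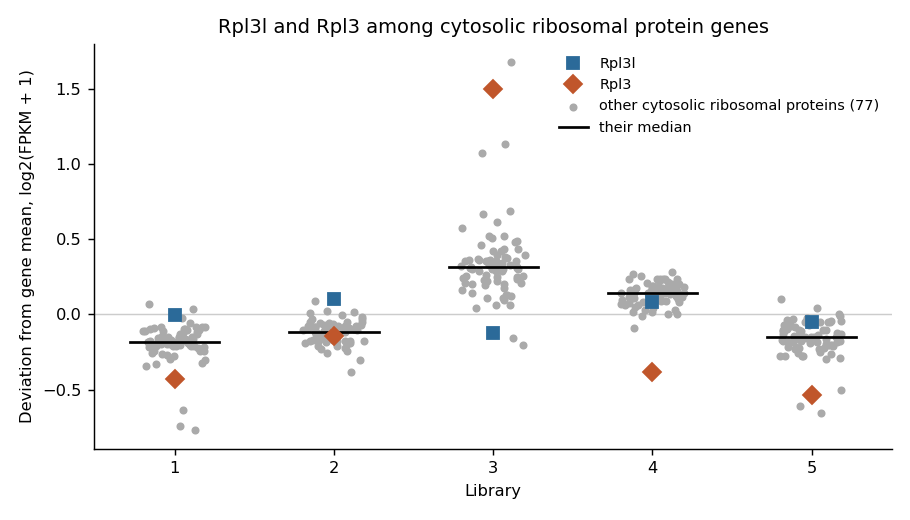
Deviation of each cytosolic ribosomal protein gene from its own mean over the 5 libraries, in log2(FPKM + 1) (vertical axis), by library (horizontal axis); grey points are 77 genes, black lines their medians, squares Rpl3l and diamonds Rpl3. In library 3 Rpl3 lies at 1.496 and Rpl3l at -0.13, above and below the median of 0.31.

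The genes next to Rpl3 by deviation in library 3, Rpl23a above it and Rpl35 (1.13) below it, were also low in level and poor in unique sequence. Both encode proteins of the large subunit. Rpl23a averaged 25.04 FPKM with 19.96% of its 100-base windows unique, and Rpl35 averaged 38.1 FPKM with 17.0% unique. Both genes were chosen after their values were seen. Among the 77 genes, the 26 with under 50% unique windows had a median deviation of 0.32 in library 3 and the 51 with more had 0.31. Across those 77 genes the unique share and the deviation in library 3 had a Spearman rho of -0.07. For the mean level and that deviation rho was -0.29. Both are given as a description because all values come from the same libraries. The part of shared sequence in the value of Rpl3 in library 3 was not tested.

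**Figure D4:**
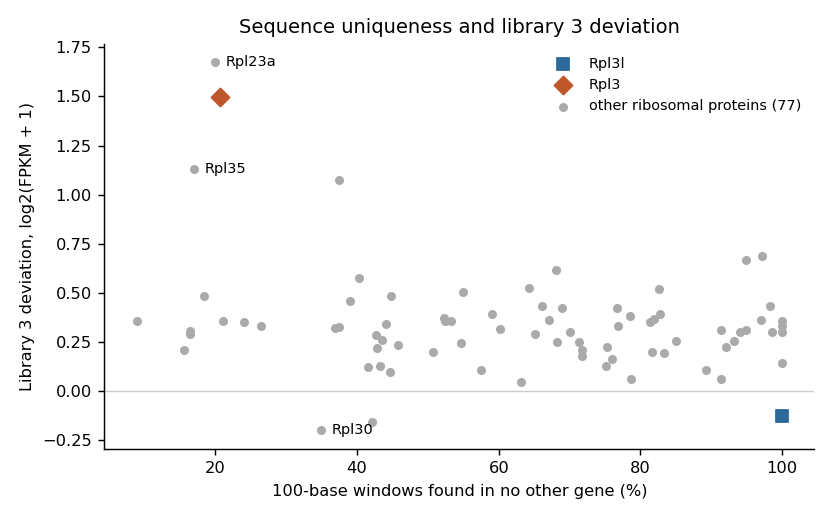
Deviation in library 3 from the gene mean, in log2(FPKM + 1) (vertical axis), against the percentage of 100-base windows of the transcript found in no other annotated gene (horizontal axis), for Rpl3l (square), Rpl3 (diamond) and 77 other cytosolic ribosomal protein genes (grey). Rpl3 lies at 20.6% and 1.496 beside Rpl23a, and Rpl3l at 100% and -0.13.

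Other ribosomal proteins with a second gene did not show such a step. The log2 ratio of the minor over the main form in library 3, minus its mean in the other libraries, was -2.03 for Rpl3l over Rpl3 on the log2(FPKM + 1) scale. It was 0.09 for Rpl7l1 over Rpl7, -0.25 for Rpl22l1 over Rpl22, -0.12 for Rpl36al over Rpl36a, 0.20 for Rps4l over Rps4x and 0.37 for Rps27l over Rps27. Rpl3l and Rpl22l1 were the minor forms that exceeded their main form in all 5 libraries, by 4.38 ± 0.91 and 0.50 ± 0.31 (SD, n = 5). Rpl22l1 was at 75.3 ± 9.92 FPKM, against 53.2 ± 8.92 FPKM for Rpl22. Rpl10l was listed at 0 in all libraries and Rpl39l was at 0 to 0.447 FPKM, so that their ratios to Rpl10 and Rpl39 follow the main form alone or nearly so.

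The elongation factor pair Eef1a2 and Eef1a1, of which Eef1a2 takes the place of Eef1a1 in mouse muscle after birth, had a pattern like that of Rpl3l and Rpl3. This pair was chosen after its values were seen. Eef1a2, the muscle and neuron form, was at 1307, 1432, 1278, 1499 and 1279 FPKM in libraries 1 to 5, and library 3 lay at the low end. Eef1a1, the general form, was at 216, 280, 710, 252 and 239 FPKM, with library 3 apart from the rest. The ratio of Eef1a2 over Eef1a1 was 1.80 in library 3 and 5.12 to 6.04 in the others. On the log2(FPKM + 1) scale it was lower by 1.63 in library 3 than on average elsewhere. Of the 100-base windows, 100% were unique in Eef1a2 and 73.3% in Eef1a1, a larger unique share than in Rpl3. With windows of 50 bases the share in Eef1a1 was 39.4%, against 14.4% in Rpl3. With windows of 150 bases it was 89.9%, against 29.0%.

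**Figure D5:**
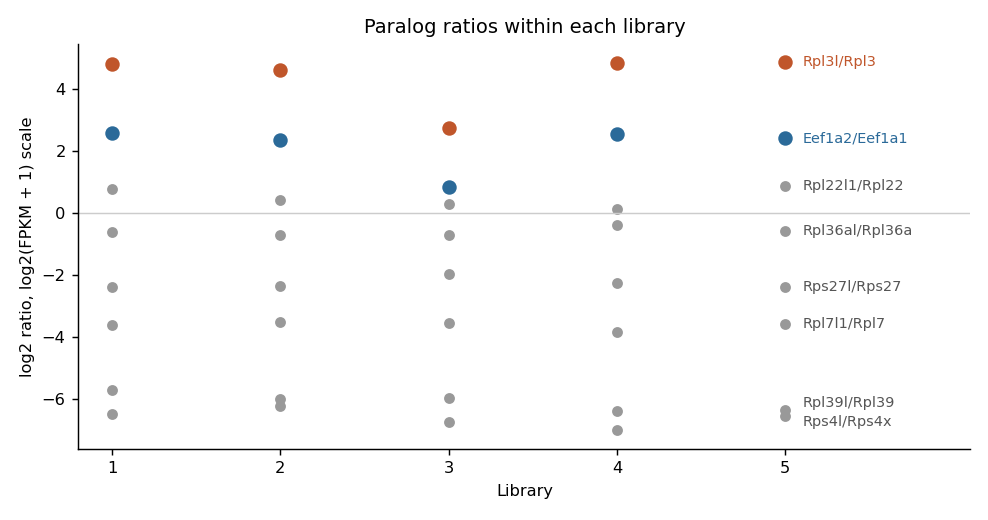
Ratio of 8 gene pairs (Rpl39l over Rpl39 included, Rpl10l over Rpl10 not drawn) within each library on the log2(FPKM + 1) scale (vertical axis) by library (horizontal axis), with Rpl3l over Rpl3 and Eef1a2 over Eef1a1 in colour and ribosomal protein pairs in grey. Rpl3l over Rpl3 is 2.75 in library 3 and 4.62 to 4.87 elsewhere, and Eef1a2 over Eef1a1 is 0.85 in library 3 and 2.35 to 2.59 elsewhere.

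Grwd1, whose yeast homologue escorts new L3 protein to the nucleolus, was at 7.40 ± 0.538 FPKM, with 8.03 in library 3 and 6.81 to 7.73 in the others. Mettl18, whose human product methylates a histidine of L3, was at 1.47 ± 0.294 FPKM (SD, n = 5), and library 3 was lowest at 1.15 against 1.25 to 1.87. Over the list of 20 genes of ribosome assembly that holds both, 14 were highest in library 3, against 37.4% of all genes, and deviations there had a median of 0.15 and reached 0.38. For 12 genes of RNA polymerase I transcription, which makes ribosomal RNA, the count was 5, near the share of all genes, with a median of 0.09 and a highest value of 0.63. For 16 genes of translation initiation and elongation the count was 10, the median 0.21 and the highest value 1.22, that of Eef1a1. The median of all genes was 0.06. Under median-of-ratios scaling the 3 counts in library 3 were 8, 3 and 6, against 27% of all genes.

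Markers of immature fibres, macrophages and red cells were highest in library 3, as Rpl3 was, and their part in its level was not tested. The counts below stand against 37.4% of all genes highest in that library. In bulk tissue, fewer cells of a type and less RNA per cell cannot be told apart. Library 3 had the highest value of all 12 markers of embryonic or regenerating fibres, with a summed level of 299 FPKM there and 59.7 to 105 in the others. Of these, Mymk, a myoblast fusion protein, was at 0 in library 1 and at 22.1 FPKM in library 3, and Mymx, its fusion partner, was at 0 in library 2 and at 4.998 FPKM in library 3. All 10 macrophage markers were highest in library 3, summing to 375 FPKM against 96.2 to 127. For fibroblasts 7 of 10 were highest there (1244 against 701 to 924 FPKM), for red cells all 4 at a mean of 1 FPKM or more of 5 (1028 against 328 to 500) and for satellite cells 3 of 5 at that level of 8 (48.3 against 36.4 to 45.8), the sums being over genes at that level. Hba-a2 and Calcr, below that level, were each at 0 in library 2, and no other marker of these cell types was at 0 in any library. Endothelial markers were highest in library 3 for 1 of 10 (126 against 126 to 157 FPKM) and tendon markers for 2 of 7 (569 against 336 to 673). Under median-of-ratios scaling the counts in library 3 stayed 12 for immature fibres, 10 for macrophages and 4 for red cells, and were 5 for fibroblasts, 2 for satellite cells, 0 for endothelium and 2 for tendon, against 27% of all genes.

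Markers of adult fibres went with Rpl3l only in part. The 6 fibre markers used to check the labelled tissue were abundant, among them Acta1 at 32368 ± 1983 FPKM and Ckm at 6482 ± 1263 FPKM (SD, n = 5), and none was at 0 in any library. Over 19 other genes listed for striated muscle, Eef1a2 among them, the median deviation was -0.09 in library 3 and between -0.07 and 0.14 elsewhere. Single genes ran from -0.58 to 0.55 in library 3, where 4 were highest, against 37.4% of all genes. Rpl3l deviated by -0.13 in library 3. The 12 adult fast-fibre genes had their lowest median in library 2 (-0.31, against -0.13 in library 3), where Rpl3l was highest at 0.10. Of 10 slow-fibre genes, 9 were highest in library 2, with a median of 1.21. Rpl3l was highest in that library as deposited, at 591 FPKM against 583 in library 4, and highest in library 4 under median-of-ratios scaling.

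The genes most like Rpl3l and Rpl3 over the 5 libraries were found by the root mean square difference between centred log2(FPKM + 1) values. Rpl3-ps1 was not compared in this way. For Rpl3 they were Tyrobp (0.05), Pld4 (0.05), Tmem176b (0.06), Ccdc80 (0.07), Fcgr3 (0.07) and Cotl1 (0.08). Tyrobp, a signalling adaptor of myeloid cells, was at 4.10, 5.84, 19.03, 4.54 and 3.77 FPKM in libraries 1 to 5, so library 3 was the high one here too. For Rpl3l they were Abhd11 (0.01), Pde6d (0.01), Tsr2 (0.01), Ppt2 (0.02), Zmat5 (0.02) and Yipf2 (0.02). Abhd11, a mitochondrial hydrolase, was at 25.1, 27.3, 23.2, 27.2 and 24.7 FPKM. After scaling each profile to unit SD 1 of the 6 genes remained for Rpl3l, Abhd11, and 1 of the 6 for Rpl3, Pld4.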

How the data were processed

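Gastrocnemius messenger RNA of 5 samples in 1 group was analysed. Per the labels' protocols, RNA was extracted with Trizol from about 20 mg of tissue and purified on poly-T beads. Per the submitters' processing notes, the tools included STAR 2.5, HTSeq 0.6.1, TopHat, edgeR and DESeq2, with no roles given, and mm10 was the build. The authors deposited FPKM values per gene and library; strand setting and the treatment of multiply matching reads are not stated there. Library totals, 16674504 to 25407988 reads, were recovered as the commonest value that made low genes whole at their exon length, and reads of the members as whole numbers within 0.001. A count of 3 reads corresponds to 0.118 to 0.180 per 1000000 reads. Recovery and the likeness measure were also run on simulated data. Those data used the exon lengths that recovery of the totals assumes, and reads were matched only up to a common factor. Like genes were planted with little noise, so these runs check the code and not the deposited values.

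Of 35275 identifiers, 34490 matched a symbol in GENCODE M21 (GRCm38), the source of coordinates and transcripts; mm10 names the same assembly. Levels are means with SD; log2 values use a pseudocount of 1, and lists use genes averaging at least 1 FPKM. Windows were compared with all annotated transcripts on both strands, and coding sequences were aligned globally with Biopython 1.88. With 1 group and members chosen on their levels, no test between groups was run, and Dixon's gap over range is used only to point out single far samples. Members, lists and the rule for named genes (the members, their 6 most similar genes, list leaders, paralog pairs and genomic neighbours) were chosen with earlier results of these data known; of the list leaders only those bearing on the members are given. Alternatives covered the libraries used, scaling, pseudocount, filter, length and unique windows. Computations ran in Python 3.11.15 with pandas 2.3.3, numpy 2.4.6, scipy 1.17.1 and, for plots, matplotlib 3.10.9.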

Additional observations from a re-analysis of the deposited data

Results flagged for a closer look

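In 11 of 37 values checked, a single sample lay farther from the rest than Dixon's 95% limit for 5 samples (a gap over 0.71 of the range), and in each it was library 3. Chance passes that limit in about 1 in 20 groups, but the members were chosen by these values, 2 of the 11 are ratios built from Rpl3, 6 are genes picked for likeness to it and Eef1a1 was chosen after its values were seen, so the count of 11 cannot be read against that rate. Rpl3 was at 73.9 FPKM there (17.3 to 23.1 in the others) and Rpl3-ps1 at 46.9 (2.99 to 5.38). The Rpl3l share of Rpl3l plus Rpl3 was 87.2% (96.2% to 96.9%), and the log2 ratio of Rpl3l over Rpl3 was 2.75 (4.62 to 4.87). Eef1a1 was at 710 FPKM (216 to 280). The 6 genes picked for likeness to Rpl3 share its high library by that choice, with Tyrobp at 19.03 FPKM, Pld4 at 10.8, Tmem176b at 39.9, Ccdc80 at 39.8, Fcgr3 at 9.97 and Cotl1 at 24.8. Rpl3l, at 505 FPKM in library 3, was not among the 11.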

How the results depend on the processing

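No paired analysis was possible because the samples form 1 group. Of 83 alternative values, 67 moved by less than the spread between libraries and 16 by more. For coefficients of variation and counts the bound was 1.5 times. A mean level, share or log2 ratio cannot move by as much as that spread when 1 library is left out. Those alternatives were bound to fall among the 67, so that count does not measure how far the means rest on single libraries. Leaving out 1 library in turn gave a coefficient of variation of 12.6% (without library 3) to 85.9% for Rpl3, and 4.98% to 7.46% for Rpl3l. Means ranged from 542 to 563 FPKM for Rpl3l, 19.6 to 33.7 for Rpl3 and 4.40 to 15.4 for Rpl3-ps1, the low ends of Rpl3 and Rpl3-ps1 being without library 3. The count of 66 ribosomal protein genes highest in the same library as Rpl3 ranged from 4 to 76; it was 4 without library 3, when Rpl3 was highest in library 2. Under median-of-ratios scaling that count was 24 and the coefficient of variation of Rpl3l 11.7%; median deviations of all genes reached -0.10 in library 4 as deposited and -0.16 under TPM. By reads per unique window of 50, 100 and 150 bases, chosen after seeing the data, the mean Rpl3l share was 68.3%, 74.9% and 80.3%, and the log2 ratio of Rpl3l over Rpl3 1.17, 1.68 and 2.17. With the windows of the intron-retaining Rpl3 transcript, also chosen after seeing the data, the share was 88.7%, 90.4% and 91.8% and the ratio 3.19, 3.45 and 3.72. The ratio of Rpl3-ps1 over Rpl3 was -1.69 on the log2(FPKM + 1) scale, and -1.95 without library 3. Levels of Rpl3-ps1 in libraries 1, 2, 4 and 5 rest on 83 to 155 reads.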

Other observations

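The nearest annotated genes on either side of Rpl3l on chromosome 17 were both detected. Ndufb10, a subunit of mitochondrial complex I on the opposite strand, lies 3341 bases before it and was at 461 ± 46.4 FPKM, and Msrb1, a methionine sulfoxide reductase on the same strand, starts 498 bases after it and was at 69.8 ± 7.35 FPKM (SD, n = 5). Msrb1 was highest in library 2 (79.98 FPKM) and lowest in library 3 (60.3), as Rpl3l was in the values as deposited. Among the 10710 genes, 23.2% were highest in library 2 and 17.1% lowest in library 3. Ndufb10 was also highest in library 2 (530 FPKM) but lowest in library 1 (413). The annotated span of Rpl3 overlaps that of Syngr1, a synaptic vesicle gene on the opposite strand, by 535 bases. Syngr1 was at 8.48 ± 0.553 FPKM, and its value in library 3 was its lowest, 7.83 against 8.19 to 9.33.

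Rpl24 averaged 0.350 FPKM, below the 1 FPKM used for lists, with 0.0886 in library 3 and 0.124 to 0.558 in the others. These values rest on few reads, so the libraries cannot be compared on them. The level was this low although Rpl24 encodes a protein of the large subunit. Of its 100-base windows 19.9% were unique, close to the 20.6% of Rpl3. The ribosomal protein genes with a smaller unique share than Rpl24 ranged from 38.1 FPKM (Rpl35) to 371 FPKM (Rpl10) in mean level. The part of shared sequence in the low level of Rpl24 was not tested. Rpl24 was singled out after its values were seen.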
